A study of Homo sapiens with 18 samples.

Results

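The genes described here are 10 members of the MYC, MAX and MXD transcription factor network, taken from the 58815 genes of an RNA-seq count table by their symbols: MYC, MYCN, MYCL, MAX, MXD1, MXI1, MXD3, MXD4, MNT and MLX. Each symbol matched 1 row of the table. The 18 libraries came from LM2, BrM and BoM cells, sublines of the human triple-negative breast cancer line MDA-MB-231 that were selected in mice for spread to lung, brain and bone (the labels call the brain subline BrM2 and the methods of the study call it BrM3). Each subline carried a lentiviral doxycycline (DOX)-inducible hairpin, either a control (shCtrl) or shWDR5-1 against WDR5 (here shWDR5), and all 6 groups, the controls included, received DOX at 1 µg/mL for 3 days. Each group held 3 biological replicates harvested at different passages. The cells of a group were an infected and selected population rather than a clone, and WDR5 was targeted by 1 hairpin, so an effect of that hairpin on other transcripts cannot be told apart from the effect of WDR5 loss. WDR5, a scaffold of histone H3 lysine 4 methyltransferase complexes, also binds MYC, and the comparisons ask whether the mRNAs of MYC and its network change when WDR5 is reduced and whether they differ between the metastatic sublines.

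MYC, MYCN and MYCL are basic helix-loop-helix leucine zipper proteins that bind DNA as heterodimers with MAX, preferring the E-box CACGTG, and promote transcription of genes for ribosome production, nucleotide synthesis and growth. MXD1, MXI1, MXD3, MXD4 and MNT compete for MAX, and their dimers recruit SIN3 and histone deacetylases to repress similar targets. MLX is a MAX-like partner that dimerizes with MXD1, MXD4 and MNT and with the glucose-responsive factors MondoA (MLXIP) and ChREBP (MLXIPL). MYC is commonly overexpressed in triple-negative breast cancer.

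The libraries held 17485841 to 119667013 counts. WDR5 mRNA fell to 18.6% of the control in LM2, 25.5% in BrM and 21.3% in BoM, and in every line the 3 shWDR5 libraries lay below the 3 shCtrl libraries. Its log2 fold changes were -2.43 (SE 0.14, edgeR adjusted p = 1.8e-08), -1.97 (SE 0.14, edgeR adjusted p = 4.2e-07) and -2.23 (SE 0.14, edgeR adjusted p = 6.2e-08). Levels are given as CPM, the counts of a gene per 1000000 counts of its library after TMM scaling. Markers of mesenchymal-like MDA-MB-231 cells were high in all libraries (VIM 1490 to 2220, AXL 709 to 1730, CD44 495 to 763, KRT8 193 to 445 and KRT18 261 to 499 CPM), and those of hormone receptors and epithelial adhesion were low (ESR1 at most 0.534, PGR at most 0.712, CDH1 at most 0.598 and EPCAM 4.37 to 10.1 CPM), while ERBB2 was present at 41.3 to 82.9 CPM. Of markers for other cell types, CD3E, CD68 and ALB never passed 8 counts in a library, VWF and PTPRC stayed at or below 1.05 CPM, PECAM1 ranged from 0.844 to 4.65 and GFAP from 0.96 to 9.93. Fold changes are log2 ratios from edgeR's quasi-likelihood test over 12287 genes, with Benjamini-Hochberg adjusted p values, and a gene was called at an adjusted p under 0.05. Whether the libraries of compared groups overlapped is stated as a description only. The share of all genes whose groups lay apart is not given here. In RNA taken from bulk cultures, fewer cells expressing a gene and less of its RNA per cell cannot be told apart.

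Of the 10 network genes, 8 passed the expression filter (a highest normalized count of about 130) and MYCN and MYCL did not. To set genes side by side, CPM was divided by the length in kb of all annotated exons of a gene, merged over its transcripts. This length can exceed that of the transcripts expressed here, so the order of genes is approximate. Means over the 9 shCtrl libraries, in CPM per kb, were 23.2 ± 2.69 for MLX and 20.5 ± 5.85 for MYC (SD, n = 9). MAX followed at 5.96 ± 0.825 and MXI1 at 3.38 ± 1.47. MXD4 (2.77 ± 0.743), MXD3 (2.28 ± 1.21), MXD1 (2.23 ± 0.584) and MNT (1.75 ± 0.415) were lower on average, and their SDs overlapped each other and that of MXI1, as did those of MLX and MYC. This order pools the lines and did not hold in each of them: MXI1 stood at 1.56 in LM2 shCtrl, below MXD4 (3.09), MXD3 (2.42) and MNT (1.73), and at 4.91 in BrM shCtrl. MYC, at 26.7 in BrM shCtrl, was above MLX, at 20.9, whereas in LM2 (13.7 against 22) and BoM (21.2 against 26.6) it was below. MYC was the most abundant of the 3 MYC family genes. MYCL, a MYC paralog first found amplified in lung cancer, gave 4 to 55 counts per library, 239 in all, or 0.066 CPM per kb. MYCN, the paralog amplified in neuroblastoma, gave 1 count in each of 2 libraries and 0 in the other 16, where 3 counts would correspond to 0.0251 to 0.172 CPM. No change in MYCN could be measured at this depth. With the less strict filterByExpr rule MYCL could be fitted, and its log2 fold change averaged over the 3 lines was -0.17 (SE 0.24, edgeR adjusted p = 0.64).

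WDR5 knockdown left MYC mRNA without a called change in any line. In LM2 the shCtrl libraries held 66.7, 88.2 and 96.2 CPM of MYC and the shWDR5 libraries 77.6, 85.1 and 104. The BrM values were 151, 170 and 168 against 147, 174 and 177. In BoM, shCtrl gave 131, 134 and 124 and shWDR5 gave 153, 138 and 141. The groups overlapped in LM2 and BrM, whereas in BoM all 3 knockdown libraries were above all 3 controls. The log2 fold changes were 0.08 (95% interval -0.19 to 0.35), 0.03 (-0.24 to 0.29) and 0.15 (-0.12 to 0.42). Averaged over the lines the change was 0.09 (SE 0.07, 95% interval -0.07 to 0.24, edgeR adjusted p = 0.37).

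MAX, the shared dimerization partner, was also uncalled. LM2 controls held 37.2, 42.5 and 34.4 CPM and LM2 knockdown libraries 36.4, 39.2 and 41.5. BrM held 42.8, 42.6 and 41.3 against 44, 47 and 43, and BoM 29.2, 33.3 and 32.7 against 31.1, 33.4 and 31.7. The BrM groups did not overlap but differed by only 0.08 on the log2 scale (SE 0.09, edgeR adjusted p = 0.65). The averaged log2 fold change of MAX was 0.04, with a 95% interval of -0.07 to 0.16.

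**Figure D1:**
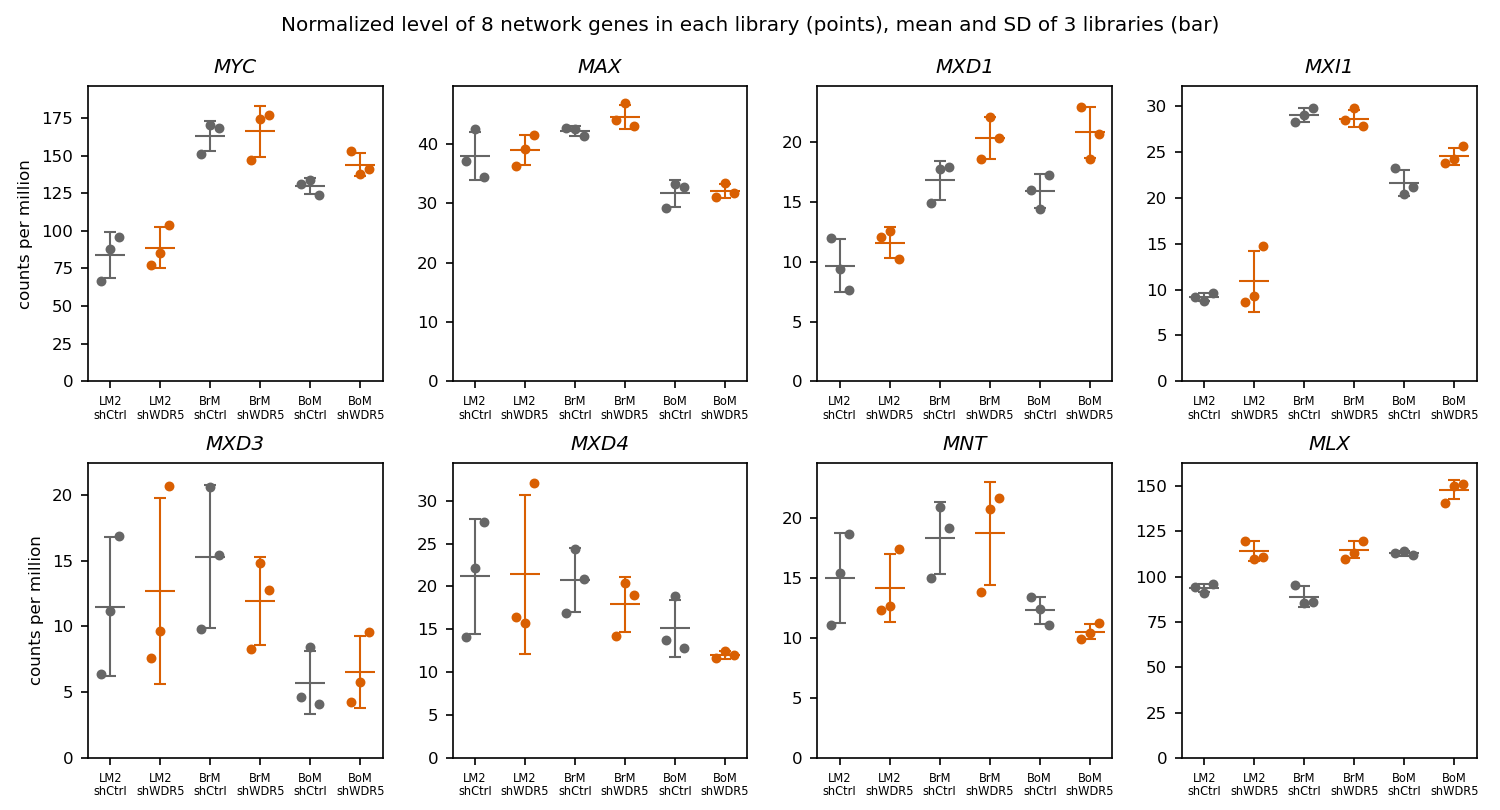
CPM (vertical axes, each starting at 0) of the 8 network genes that passed the filter, in the 3 libraries (points) of each line and hairpin, with the mean and SD as bars; gray is shCtrl and orange shWDR5. MLX was higher in the 3 knockdown libraries than in the 3 controls of every line, and MYC and MXI1 were lower in LM2 than in BrM and BoM.

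MLX was the only member called in all 3 lines, and it rose in each. LM2 shCtrl libraries held 94.1, 91.3 and 96.0 CPM of MLX and LM2 shWDR5 libraries 120, 110 and 111. BrM held 95.6, 85.5 and 85.9 against 110, 113 and 120. BoM held 113, 114 and 112 against 141, 150 and 151. Knockdown and control libraries did not overlap in any line. The log2 fold changes were 0.28 in LM2 (SE 0.07, edgeR adjusted p = 0.026), 0.36 in BrM (SE 0.07, edgeR adjusted p = 0.0037) and 0.39 in BoM (SE 0.07, edgeR adjusted p = 0.0016), and the average was 0.34 (SE 0.04, edgeR adjusted p = 8.5e-06), a 1.27-fold rise. Calls of this kind were not rare: 1.5% of the 12287 genes were called higher and 4.84% lower in LM2, 2.94% and 8.02% in BrM, and 5.41% and 10.8% in BoM, with 1 of the 8 network genes called in each. For the average the shares were 15.7% higher and 19.9% lower, with 2 of 8 network genes called. The LM2 call rests on single libraries: it was lost without shCtrl replicate 2 (edgeR adjusted p = 0.11), shCtrl replicate 3 (0.068), shWDR5 replicate 1 (0.14) or shWDR5 replicate 2 (0.059), with the log2 fold change between 0.24 and 0.30. MLX lies at chr17:42567072-42573239 (GRCh38, plus strand). The exons of PSMC3IP, a meiotic recombination gene on the opposite strand, overlap 18.2% of MLX exon length, and the strand setting of the counting is not given in the sources used here. PSMC3IP itself held 16.4 to 27.5 CPM and had an averaged log2 fold change of 0.03 (SE 0.06, edgeR adjusted p = 0.71).

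The E-box bound by MYC-MAX was looked for in the RefSeq promoters of the network genes (GRCh38.p14, 250 bases before to 50 after each start). Windows of 9 of the 10 genes were examined, 12 windows in all. The promoter of MYC was left out of this search, so whether it holds the motif was not tested. Among the windows examined, those of MLX, MNT and MXD4 held CACGTG once each. The motif reads the same on both strands, and 7.26% of 35116 human promoters of the same length held it (2548). The 250 bases upstream of the start are shown for these 3 genes because MLX rose and the other two, with the same hexamer, had no called change. The E-box is in capitals, and its first base lies at position -50 from the start in MLX (chr17:42566850-42567099, plus strand), -193 in MNT (chr17:2401061-2401310, minus strand) and -238 in MXD4 (chr4:2262110-2262359, minus strand).
MLX: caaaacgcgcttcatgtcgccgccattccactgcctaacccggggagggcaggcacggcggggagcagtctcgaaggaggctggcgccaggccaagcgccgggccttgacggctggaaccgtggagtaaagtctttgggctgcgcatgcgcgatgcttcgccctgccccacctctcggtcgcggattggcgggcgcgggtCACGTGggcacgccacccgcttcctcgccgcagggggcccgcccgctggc
MNT: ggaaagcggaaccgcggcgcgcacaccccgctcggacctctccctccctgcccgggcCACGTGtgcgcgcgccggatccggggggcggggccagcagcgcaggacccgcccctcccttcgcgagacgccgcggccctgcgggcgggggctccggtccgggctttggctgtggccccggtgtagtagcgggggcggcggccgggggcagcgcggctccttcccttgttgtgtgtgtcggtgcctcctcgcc
MXD4: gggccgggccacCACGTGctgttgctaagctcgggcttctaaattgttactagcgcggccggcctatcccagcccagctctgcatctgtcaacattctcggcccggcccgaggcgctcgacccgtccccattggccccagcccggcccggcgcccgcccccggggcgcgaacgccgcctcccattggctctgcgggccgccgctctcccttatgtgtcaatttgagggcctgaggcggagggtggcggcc
The presence of these letters is a description of the sequence and does not show that MYC, MLX or any other factor is bound there.

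MXD1, a MAX partner associated with differentiation and exit from proliferation, was the other member called in the average. LM2 controls held 12.0, 9.38 and 7.62 CPM and LM2 knockdown libraries 12.1, 12.6 and 10.2. BrM held 14.9, 17.7 and 17.9 against 18.6, 22.1 and 20.3. BoM held 16.0, 14.4 and 17.2 against 22.9, 18.6 and 20.7. The groups were apart in BrM and BoM and overlapped in LM2. The log2 fold changes were 0.29, 0.27 and 0.39, each with an SE of 0.15, and none was called alone (edgeR adjusted p = 0.30, 0.26 and 0.083). Averaged over the lines MXD1 rose by 0.32 (SE 0.09, edgeR adjusted p = 0.0079), and this call held in all 18 fits that left out 1 library. The BoM difference passed in 3 of the 8 alternative analyses that kept all libraries. Among them were DESeq2 (DESeq2 adjusted p = 0.042) and a replicate block (edgeR adjusted p = 0.015). With each library dropped in turn, the BoM difference passed in 1 of 18 fits (highest edgeR adjusted p = 0.26). That fit left out LM2 shCtrl replicate 1, which is not a BoM library. SNRNP27, a same-strand neighbour whose exons overlap 3.73% of MXD1 exon length, had an averaged log2 fold change of 0.06 (SE 0.08, edgeR adjusted p = 0.61).

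The remaining MAX-binding repressors had no called knockdown change. MXI1 held 9.22, 8.76 and 9.64 CPM in LM2 shCtrl and 8.66, 9.27 and 14.7 in LM2 shWDR5. BrM values were 28.2, 29.0 and 29.8 against 28.4, 29.7 and 27.8, and BoM values 23.2, 20.4 and 21.2 against 23.8, 24.2 and 25.6. LM2 shWDR5 replicate 3 stood above its group, and the BoM groups did not overlap, although the BoM difference of 0.18 was uncalled (SE 0.14, edgeR adjusted p = 0.41). The averaged change of MXI1 was 0.13 (95% interval -0.05 to 0.30, edgeR adjusted p = 0.24).

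MXD3, which is induced in S phase of the cell cycle, had the largest standard errors of the 8 genes. LM2 held 6.40, 11.2 and 16.9 CPM in shCtrl and 7.62, 9.66 and 20.7 in shWDR5. BrM held 9.78, 20.6 and 15.4 against 8.25, 14.8 and 12.8, and BoM 4.61, 8.47 and 4.11 against 4.25, 5.79 and 9.54. All 3 pairs of groups overlapped. The averaged log2 fold change was -0.03 with a 95% interval of -0.55 to 0.48, so changes of MXD3 up to about that size were not detectable. Its counts are also uncertain, since exons of PRELID1 (opposite strand) and RAB24 (same strand) overlap 24.2% and 19.5% of its exon length.

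MXD4, a further MAX-binding repressor of the MXD family, held 14.1, 22.1 and 27.5 CPM in LM2 shCtrl and 16.4, 15.7 and 32.1 in LM2 shWDR5. BrM held 16.9, 24.4 and 20.9 against 14.2, 20.4 and 19.0, and BoM 13.7, 18.9 and 12.8 against 11.6, 12.5 and 12.0. In BoM all knockdown libraries were below all controls, with a log2 fold change of -0.33 (SE 0.27, edgeR adjusted p = 0.43). MNT, a widely expressed antagonist of MYC, held 11.1, 15.4 and 18.6 in LM2 shCtrl and 12.3, 12.6 and 17.4 in LM2 shWDR5. BrM held 15, 20.9 and 19.1 against 13.8, 20.7 and 21.6, and BoM 13.4, 12.4 and 11.1 against 9.91, 10.4 and 11.2. The MNT groups overlapped in all lines. Averaged changes were -0.19 for MXD4 (95% interval -0.51 to 0.13) and -0.10 for MNT (-0.34 to 0.14).

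**Figure D2:**
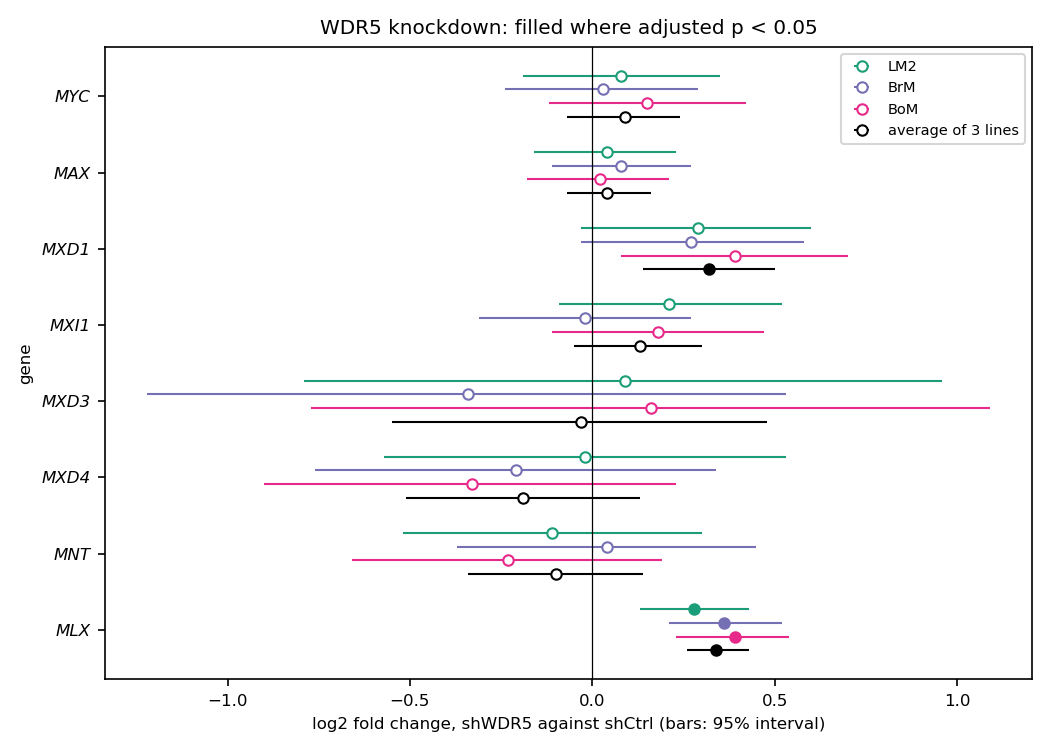
Log2 fold change of shWDR5 against shCtrl (horizontal axis) for the 8 tested network genes in LM2, BrM, BoM and averaged over the lines; bars are 95% intervals and filled points have an adjusted p under 0.05. MLX is filled in all 4 comparisons and MXD1 in the average, and the MYC and MAX intervals all include 0.

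Whether the knockdown response differed between lines was tested with a joint F test of the line differences. No network gene was called, nor was any of the 12287 genes (0%) by edgeR's quasi-likelihood test, although 502 had an unadjusted p under 0.05 and DESeq2 called 59. The smallest unadjusted p among the 8 members was 0.46, for MXI1. The largest distance between lines in log2 fold change was 0.50, for MXD3, and the distance for MLX was 0.10.

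The control cells of the lines were compared next. Line differences were frequent among all genes: 24.2% were higher and 23.4% lower in BrM than LM2, 26% and 25.8% in BoM than LM2, and 17.8% and 19.7% in BoM than BrM. Of the 8 network genes, 3 were called in the first comparison (all higher, 37.5%), 5 in the second (4 higher) and 5 in the third (1 higher). The 3 comparisons share their control libraries, so their values are set side by side. MYC was higher in BrM than in LM2 by 0.96 on the log2 scale (SE 0.13, edgeR adjusted p = 8.8e-06), 1.94-fold, and higher in BoM than in LM2 by 0.63 (SE 0.13, edgeR adjusted p = 0.00052), 1.55-fold. The highest LM2 control library, at 96.2 CPM, lay below the lowest of BoM, at 124, and of BrM, at 151. MYC in BoM was 79.7% of that in BrM, a log2 difference of -0.33 (SE 0.13, edgeR adjusted p = 0.051) that did not pass the threshold here but passed with DESeq2 (DESeq2 adjusted p = 0.040) and in 7 of the 8 alternative analyses that kept all libraries of the comparison. With each library dropped in turn it passed in 5 of 18 fits (highest edgeR adjusted p = 0.15). None of these 5 fits left out a BrM or BoM shCtrl library, the libraries compared. The order of MYC was therefore LM2 below BoM and BrM, with BoM and BrM apart in every library but at the threshold of the test.

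MXI1, a member of the MXD family also known as MXD2, had the largest line difference of the 8 genes. Its mean was 9.21 ± 0.444 CPM in LM2 shCtrl, 29.0 ± 0.775 in BrM and 21.6 ± 1.41 in BoM (SD, n = 3), and no library of one line reached another. BrM exceeded LM2 by 1.66 on the log2 scale (SE 0.14, edgeR adjusted p = 4.4e-08), 3.15-fold, and BoM exceeded LM2 by 1.23 (SE 0.14, edgeR adjusted p = 1.5e-06), 2.35-fold. BoM was lower than BrM by -0.42 on that scale (SE 0.14, edgeR adjusted p = 0.023), a call lost without BrM shCtrl replicate 2 or 3 or BoM shCtrl replicate 2 or 3 (edgeR adjusted p at most 0.071, log2 difference -0.38 to -0.42). MXD1 was likewise higher in BrM (0.81, SE 0.15, edgeR adjusted p = 0.00023) and BoM (0.73, SE 0.15, edgeR adjusted p = 6e-04) than in LM2. BoM and BrM differed by -0.09 in MXD1 (95% interval -0.40 to 0.22). SNRNP27, whose exons overlap MXD1 on the same strand, was also higher in BrM than in LM2, by 0.54 (SE 0.14, edgeR adjusted p = 0.0043). In BoM it was higher than in LM2 by 0.76 (SE 0.14, edgeR adjusted p = 0.00024). The part of SNRNP27 in the MXD1 differences was not tested. So MYC and 2 of the genes whose products compete with it for MAX were each lowest in LM2.

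MAX had a different order. It was lowest in BoM, by -0.41 against BrM (SE 0.09, edgeR adjusted p = 0.002) and -0.26 against LM2 (SE 0.09, edgeR adjusted p = 0.024), and BrM and LM2 differed by 0.15 (95% interval -0.04 to 0.34). The BoM and LM2 call for MAX was lost without LM2 shCtrl replicate 2 (log2 difference -0.17, edgeR adjusted p = 0.15) or BoM shCtrl replicate 1 (-0.22, edgeR adjusted p = 0.096). MLX was highest in BoM, by 0.27 over LM2 (SE 0.07, edgeR adjusted p = 0.0049) and 0.34 over BrM (SE 0.07, edgeR adjusted p = 0.0013), while BrM and LM2 differed by -0.08 (95% interval -0.23 to 0.08). PSMC3IP, on the strand opposite MLX, was also higher in BoM than in LM2, by 0.37 (SE 0.10, edgeR adjusted p = 0.0038), and its part in the MLX difference was not tested.

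MXD3 and MNT were lower in BoM than in BrM, by -1.39 (SE 0.43, edgeR adjusted p = 0.017) and -0.57 (SE 0.20, edgeR adjusted p = 0.029). Both calls depended on single libraries: MXD3 was not called without BrM shCtrl replicate 2 (-1.12, edgeR adjusted p = 0.082), BoM shCtrl replicate 1 (-1.24, 0.071) or BoM shCtrl replicate 3 (-1.22, 0.073), and MNT was not called without replicate 2 or 3 of either group (-0.47 to -0.58, highest edgeR adjusted p = 0.12). Against LM2, the BoM values were -1.01 for MXD3 (SE 0.43, edgeR adjusted p = 0.057, passing in 4 of the 8 alternatives that kept all libraries) and -0.30 for MNT (SE 0.20, edgeR adjusted p = 0.22), and the BrM values 0.39 (SE 0.41, edgeR adjusted p = 0.46) and 0.28 (SE 0.19, edgeR adjusted p = 0.25). MXD4 had no called line difference, with log2 values of -0.04, -0.49 and -0.45.

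**Figure D3:**
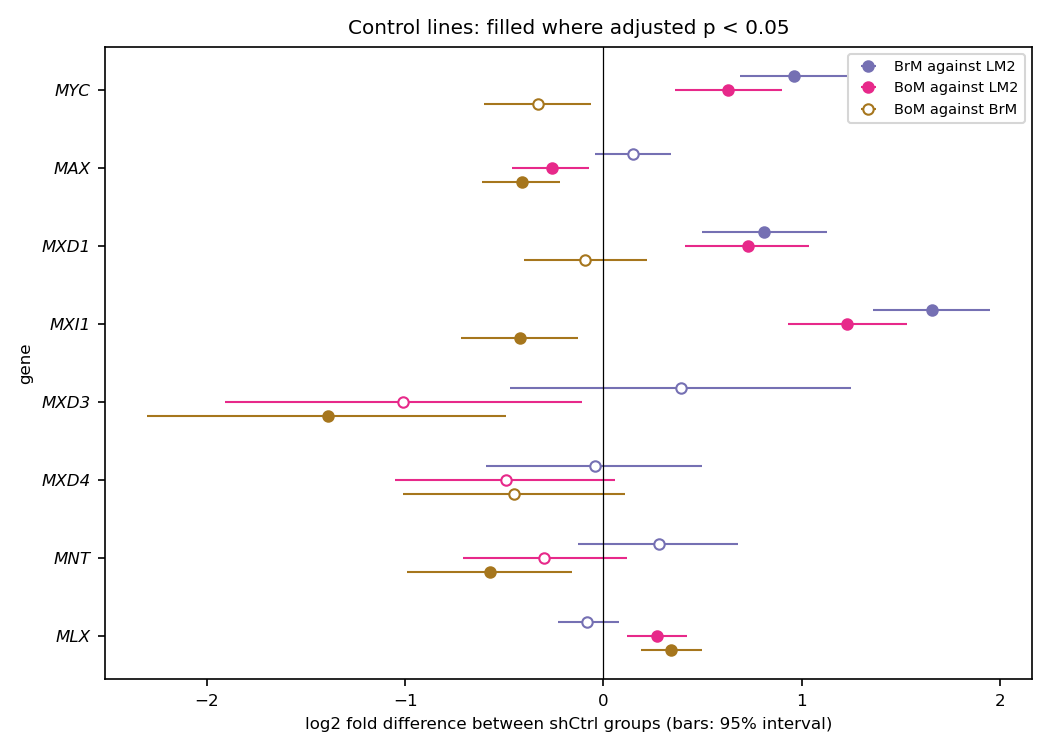
Log2 difference between the shCtrl groups of the lines (horizontal axis) for the 8 tested network genes; bars are 95% intervals and filled points have an adjusted p under 0.05. MYC, MXD1 and MXI1 sit to the right of 0 for BrM and BoM against LM2, and MXI1 reaches 1.66.

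The relative amounts of the partners changed with the line. The ratios below rest on the merged exon lengths, so they compare libraries and do not give absolute amounts. Within a library, the ratio of MYC to MAX in CPM per kb averaged 2.28 ± 0.532 in LM2 shCtrl, 3.96 ± 0.291 in BrM shCtrl and 4.21 ± 0.364 in BoM shCtrl (SD, n = 3). After knockdown the ratios were 2.32 ± 0.212, 3.81 ± 0.402 and 4.61 ± 0.404, and the knockdown and control libraries of each line overlapped. The BoM libraries held 5.04, 4.24 and 4.56 after knockdown against 4.6, 4.13 and 3.89 in the controls. MYC over the sum of MXD1, MXI1, MXD3, MXD4 and MNT was 1.33 ± 0.0728 in LM2 shCtrl, 1.69 ± 0.154 in BrM shCtrl and 1.94 ± 0.0477 in BoM shCtrl. After knockdown it was 1.36 ± 0.2, 1.78 ± 0.0868 and 2.02 ± 0.189, and the groups overlapped in each line. The ratio of MLX to MAX was 3.66 ± 0.476, 3.10 ± 0.168 and 5.26 ± 0.383 in the controls and 4.31 ± 0.481, 3.78 ± 0.283 and 6.77 ± 0.215 after knockdown. For this ratio the knockdown and control libraries overlapped in LM2 but not in BrM or BoM.

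MXD3, MXD4 and MNT rose and fell together from library to library. Over the 18 libraries the Pearson r of their log2 levels was 0.88 for MXD3 and MXD4, 0.85 for MXD3 and MNT and 0.80 for MXD4 and MNT. These genes are GC-rich, with 61.3%, 57.6% and 61.3% G or C in their longest annotated transcripts. The libraries differed in the level of GC-rich genes as a whole. The GC tilt of a library, the smoothed log2 level (relative to each gene's mean over libraries) of genes at 60% GC minus that of genes at 45%, ranged from -0.47 to 0.48. Its r with the level was 0.88 for MXD3, 0.97 for MXD4 and 0.79 for MNT, and 0.92, 0.94 and 0.88 after each group's mean was removed. For MLX, at 51.8% GC, the r was -0.57 over the 18 libraries and 0.02 within groups. MYC also moved with the tilt within groups (0.85), and MXD1 moved against it (-0.59). These correlations describe 18 libraries that share lines and hairpins. The tilt differed between groups as well, from -0.47 to -0.26 in BoM shWDR5 and from -0.25 to 0.48 in LM2 shCtrl. With per-gene GC offsets in the fit, BoM minus BrM became -0.30 for MNT (edgeR adjusted p = 0.022), against -0.57 without them, and -1.14 for MXD3 (edgeR adjusted p = 0.0043), against -1.39. The BoM minus LM2 value of MXD3 with the offsets was -0.71 (edgeR adjusted p = 0.045) and that of MNT 0.01 (edgeR adjusted p = 0.96).

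**Figure D4:**
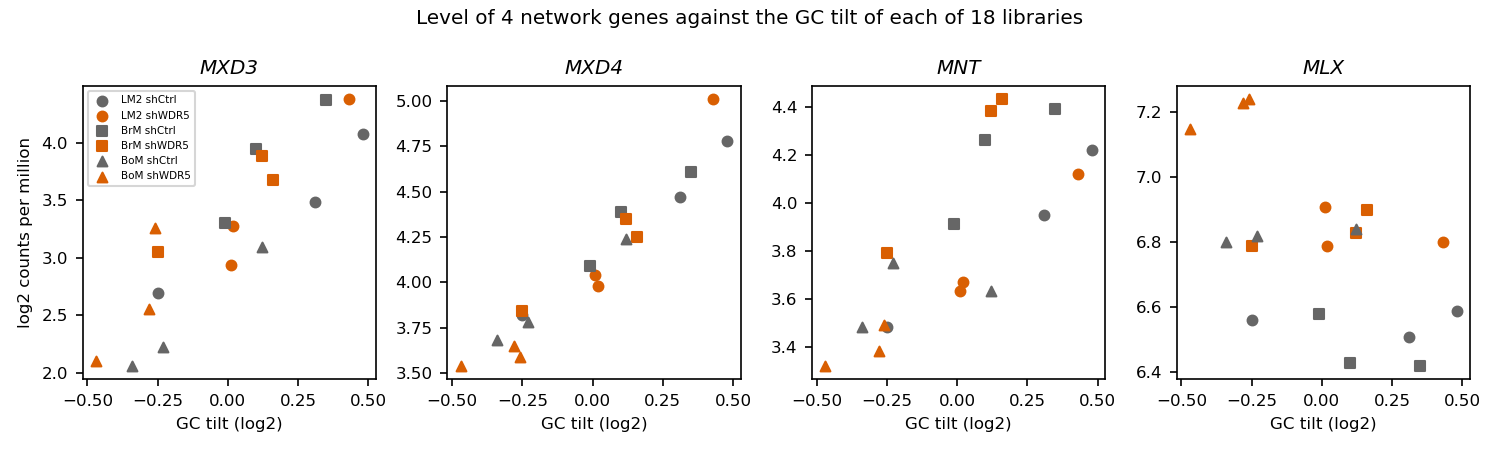
Log2 CPM (vertical axes) of MXD3, MXD4, MNT and MLX against the GC tilt of each of the 18 libraries (horizontal axes, log2 units); marker shape gives the line and color the hairpin. MXD4 follows the tilt closely (r = 0.97), whereas MLX separates by hairpin at any tilt within a line.

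The rest of the network and its cofactors were followed as lists. MGA, a MAX-binding T-box repressor, rose in the average by 0.31 (SE 0.12, edgeR adjusted p = 0.048), close to the threshold. Its values in LM2, BrM and BoM were 0.2, 0.31 and 0.43, none of them called (edgeR adjusted p = 0.66, 0.39 and 0.17). MLXIP, the MondoA partner of MLX, had an averaged value of 0.16 (SE 0.08, edgeR adjusted p = 0.12), and MLXIPL was not tested. Both direct MondoA-MLX targets in the list of 2 genes rose in the average, beside 15.7% of all genes called higher. The list was chosen with earlier results of these data known. TXNIP, an inhibitor of glucose uptake, went from 118 ± 16 to 190 ± 22 CPM in LM2, from 274 ± 0.82 to 407 ± 4.5 in BrM and from 190 ± 29.6 to 312 ± 17.6 in BoM, an averaged log2 change of 0.66 (SE 0.07, edgeR adjusted p = 1.5e-06). ARRDC4, its arrestin-family relative, rose by 0.47 in the average (SE 0.09, edgeR adjusted p = 0.00078), with values of 0.27, 0.65 and 0.49 in LM2, BrM and BoM and a call in BrM alone (edgeR adjusted p = 0.0092). Between controls, ARRDC4 was higher in BrM than in LM2 by 2.53 (SE 0.16, edgeR adjusted p = 8.1e-10) and TXNIP by 1.22 (SE 0.12, edgeR adjusted p = 1.9e-07). TXNIP was also higher in BoM than in LM2, by 0.69 (SE 0.12, edgeR adjusted p = 9.6e-05), where ARRDC4 differed by -0.15 (SE 0.16, edgeR adjusted p = 0.47).

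Of 22 cofactors and regulators of MYC turnover, 2 rose (9.09%) and 1 fell (4.55%) in the average, beside 15.7% and 19.9% of all genes, and the one that fell was WDR5 itself. HDAC2, a deacetylase of the SIN3 complexes used by MXD proteins, rose by 0.24 (SE 0.05, edgeR adjusted p = 0.0021), and HUWE1, a ubiquitin ligase that targets MYC, rose by 0.25 (SE 0.09, edgeR adjusted p = 0.044). SIN3A had a value of 0.12 (SE 0.05, edgeR adjusted p = 0.056). The list's median log2 change was 0.04, beside 0.003 for all tested genes.

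Of 68 listed MYC-activated genes, which serve ribosome production, nucleotide synthesis and growth, 64 were tested, and in the averaged comparison 34 rose (53.1%), 2 fell (3.12%) and 28 were not called, beside 15.7% and 19.9% of all genes, with a median log2 change of 0.21 against 0.003. By line, 3 rose and 1 fell in LM2, 19 and 1 in BrM, and 15 and 2 in BoM, with medians of 0.17, 0.24 and 0.21. The list was chosen with results of these data known and was not tested as a set. IMPDH2, the rate-limiting enzyme of guanine nucleotide synthesis, had the smallest p of the list and rose from 408 ± 15.7 to 574 ± 58.5 CPM in LM2, from 398 ± 19.6 to 636 ± 53.3 in BrM and from 575 ± 35.3 to 854 ± 87.7 in BoM, an averaged change of 0.58 (SE 0.06, edgeR adjusted p = 8.3e-07). NPM1, a nucleolar chaperone of ribosome assembly, rose by 0.34 (SE 0.05, edgeR adjusted p = 3.1e-05), and NIP7, a ribosome biogenesis factor, by 0.42 (SE 0.06, edgeR adjusted p = 3.3e-05). CBX3, a heterochromatin protein of the HP1 family, fell by 0.56 (SE 0.07, edgeR adjusted p = 1.3e-05) and was called lower in each line. The other gene that fell, SLC29A2, a nucleoside transporter named after its value was seen, had a value of -0.64 (SE 0.13, edgeR adjusted p = 0.00088).

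**Figure D5:**
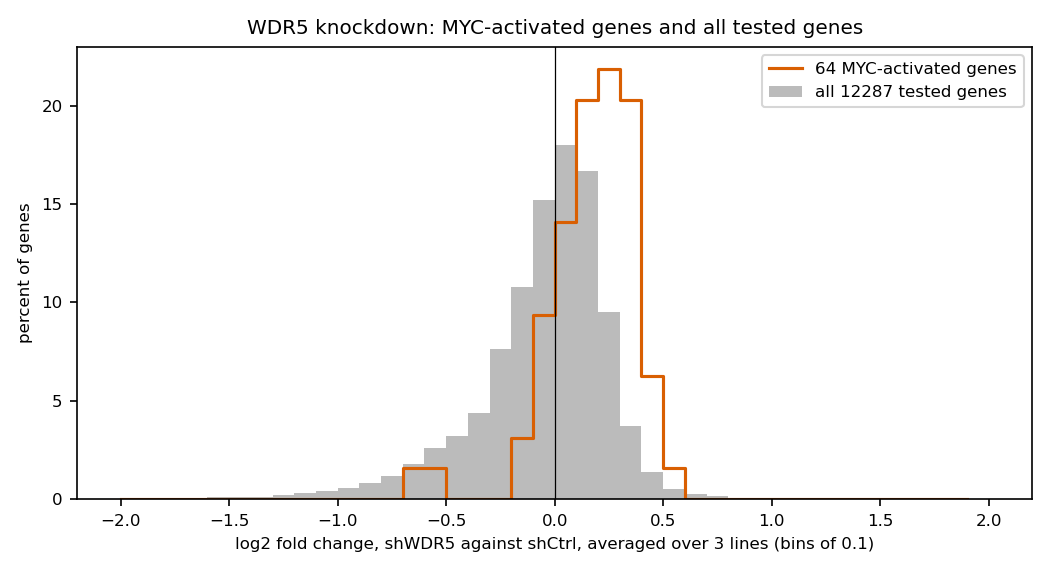
Share of genes (vertical axis, percent) by log2 fold change of shWDR5 against shCtrl averaged over the lines (horizontal axis, bins of 0.1), for all 12287 tested genes (gray bars) and the 64 MYC-activated genes (orange outline). The outline sits to the right of the bars, with medians of 0.21 and 0.003; genes beyond -2 or 2 are not drawn.

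The same list differed between the control lines. In BrM against LM2, 26 of the 64 genes were higher (40.6%, beside 24.2% of all genes) and 2 lower (3.12%, beside 23.4%), with a median of 0.26. In BoM against LM2, 34 were higher (53.1%, beside 26%) and 5 lower (7.81%, beside 25.8%), with a median of 0.36. In BoM against BrM, 11 were higher (17.2%, close to the 17.8% of all genes) and 6 lower (9.38%, beside 19.7%), with a median of 0.02. NPM1 was higher in BrM by 0.92 (SE 0.08, edgeR adjusted p = 6e-08) and in BoM by 0.93 (SE 0.08, edgeR adjusted p = 5.6e-08) than in LM2. Of the 12 listed MYC-repressed genes, 9 were tested. In BrM against LM2, 2 of them were higher (22.2%) and 5 lower (55.6%). The counts were 4 and 3 in BoM against LM2 (44.4% and 33.3%), and 4 and 2 in BoM against BrM (44.4% and 22.2%). The shares of all genes are those given above for each comparison. After knockdown 2 of the 9 rose (22.2%) and 3 fell (33.3%) in the average. Among 9 genes the knockdown counts are close to the shares of all genes, 15.7% and 19.9%. The genes that rose were GADD45A (0.34, SE 0.08, edgeR adjusted p = 0.0045; named after its value was seen) and DDIT3, a transcription factor of the unfolded protein response, by 0.65 (SE 0.09, edgeR adjusted p = 3.6e-05). PDGFRB, a growth factor receptor, fell by 0.87 (SE 0.11, edgeR adjusted p = 1e-05) and was called lower in every line. CDKN1A, encoding the cyclin-dependent kinase inhibitor p21, fell by 0.38 (SE 0.07, edgeR adjusted p = 0.00042). By line it was called in BoM alone (edgeR adjusted p = 0.0034, against 0.3 in LM2 and 0.09 in BrM). NDRG2 fell by 1.88 (SE 0.30, edgeR adjusted p = 0.00014), from 1.13 ± 0.209 to 0.302 ± 0.0645 CPM in BrM and from 4.02 ± 0.573 to 0.873 ± 0.197 in BoM. LM2 held only 0.0712 ± 0.0525 in controls and 0.0352 ± 0.0306 after knockdown, an uncalled change of -1.64 (SE 0.82, edgeR adjusted p = 0.27).

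Among the 12286 other tested genes, those whose log2 level followed MYC most closely over the 18 libraries were ANKRD13B (Pearson r = 0.973), PEAR1 (0.968), CCDC92 (0.965), DENND3 (0.964) and GPR17 (0.963). After centring on each line the r values were 0.79, 0.801, 0.795, 0.665 and 0.727, all lower than over the lines together. Among the members themselves, r with MYC over the 18 libraries was highest for MXI1 (0.96) and MXD1 (0.78). After centring it was 0.59 and -0.06 for these genes and higher for MXD3 (0.73), MNT (0.70) and MXD4 (0.69). Within groups, MYC, MXD3, MNT and MXD4 each also followed the GC tilt (r = 0.85, 0.92, 0.88 and 0.94). The part of the tilt in these correlations was not tested.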

How the data were processed

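Poly(A)-selected stranded libraries were sequenced as paired ends. Per the labels, the authors used CASAVA 1.8.2, STAR 2.7.0 and DESeq2 with the hg38 genome, and the deposited values are raw read counts per gene. The strand setting of the counting is not given in the sources used here. A second deposited table holds the authors' own fold changes and p-values, which were not used. Groups came from the sample titles, because the source labels name another subline for most libraries. Columns marked ad were read as shCtrl, the only arm beside the knockdown. The spike-in named in the labels has no rows in the table used here, so total RNA per cell was not analysed.

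Genes were kept by a recomputed Jaccard filter (threshold 130 on the highest normalized count; mean index 0.97), scaled by TMM and fitted in 6 groups of 3 libraries with the quasi-likelihood test of edgeR 4.0.16 (R 4.3.3). All comparisons were contrasts of that fit, two-sided, with Benjamini-Hochberg adjustment over 12287 genes and a threshold of 0.05. Log2 levels used a prior count of 2. Depth was 17485841 to 119667013 counts per library. No replicate pair agreed within sampling noise. The fit was tested on simulated data. Alternatives were DESeq2 1.42.0, other filters and scaling, GC offsets, a replicate block, each comparison alone, and leaving out each library. Named genes were the 10 members, WDR5, the 4 genes of each list with the smallest p in the averaged comparison, and the 5 most like MYC. The members and lists were chosen with earlier results of these data known. Exon lengths (all annotated exons merged), GC content (longest transcript of a gene) and overlaps came from GENCODE v44 (GRCh38), and promoters from RefSeq.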

Additional observations from a re-analysis of the deposited data

How the results depend on the processing

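Of 1448 values for the tested members under 26 alternatives, 1393 kept their side of the threshold, 23 lost a call, 32 gained one and 0 called values reversed. Of the 1393, 48 changed sign without a call in either fit. The 34 MYC-activated genes higher and 2 lower in the averaged comparison stayed at 34 to 40 and 2 to 3 under the other fits, and at 29 to 36 and 2 to 3 when 1 library was left out. The cause of the changes below was not tested.

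The number of members called after knockdown in LM2 (1) became 0 without an expression filter and 0 when fitted alone. MLX then had an adjusted p of 0.28 and 0.089 by edgeR. It became 2 with GC offsets with replicate block, as in BrM and BoM, the added gene being MXD1, and in BoM also 2 with the replicate block alone and with DESeq2. In BrM against LM2 the number was 6 with GC offsets with replicate block. Genes called in LM2 (779) numbered 1465 with the replicate block, 1874 with GC offsets, 3208 with both and 290 alone. Those in BrM (1347) numbered 2334, 2681 and 3935 with the first 3 settings. Those in BoM (1991) numbered 3249, 3120 and 4440, and 938 alone. The average (4376) became 6910 with GC offsets and the replicate block. The test by line (0) gave 34 without a filter, 29 with GC offsets, 80 with both and 59 with DESeq2. The split into higher and lower in LM2, 184 and 595, was 415 and 743 with DESeq2, 650 and 1224 with GC offsets and 1408 and 1800 with both. In BrM, 361 and 986 became 1593 and 2342 with both, and in BoM 665 and 1326 became 1089 and 1412 with DESeq2.

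Leaving out 1 library gave 0 to 1 members called in LM2, 1 to 2 in BoM and 2 to 6 in BoM against BrM, and 387 to 1014 genes called in LM2, 759 to 1623 in BrM and 1185 to 2368 in BoM. The deviations of libraries with the same replicate number correlated at 0.567, 0.042 and 0.725 in LM2, 0.531, 0.499 and -0.168 in BrM, and 0.553, 0.32 and 0.16 in BoM. All 3 pairs passed 0.1 in BoM but not in LM2 or BrM, and no source says that a number marks a shared passage, so the block stayed an alternative. For members the replicate block added 3 calls and lost 0: MXD1 in BoM (0.39, edgeR adjusted p = 0.015), MXD3 in BoM against LM2 (-0.89, edgeR adjusted p = 0.013) and MYC in BoM against BrM (-0.32, edgeR adjusted p = 0.025). With 3 libraries per group, changes under about the size of the intervals given cannot be told from 0.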
